A study of Mus musculus with 8 samples.

Results

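The nuclear genes of the respiratory chain were followed in mouse spleens with and without lymphoma. They were taken as the transcript clusters, the probe groups that each read the exons of a gene, whose symbol on the array's annotation starts with the letters of a subunit of complexes I to V: Ndufa, Ndufb, Ndufc, Ndufs or Ndufv for complex I, the genes Sdha to Sdhd for complex II, Uqcr for complex III, Cox4i, Cox5, Cox6, Cox7 or Cox8 for complex IV, and Atp5 for complex V. Assembly factors were left out, both Ndufaf and the Sdhaf genes, which begin with the same letters as Sdha but help to build complex II. The rule used names and no measured value. It found 85 genes, each read by 1 cluster, among 22206 clusters in all: 38 of complex I, 4 of complex II, 8 of complex III, 18 of complex IV and 17 of complex V. A further 3 genes whose names meet the rule were not analysed here.

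Spleen RNA was read on Clariom S HT arrays of Affymetrix, with 4 arrays of lymphoma-bearing animals (Trp53KI/KI;Vav1DC/DC) and 4 of control animals (Trp53KI/KI), all C57BL/6. Both groups carry the same knock-in allele, as their labels show. The lymphoma group carries in addition the gene-edited Vav1DC allele in the germline, which cuts short the C-terminal SH3 domain of VAV1, a signalling protein of haematopoietic cells. Disease and Vav1 genotype therefore differ together and cannot be told apart. The labels give no age, and no source says whether the arrays stand for separate animals. The study's legend for these profiles speaks of triplicates and of cells from the spleen, whereas the labels give 4 arrays of spleen for each group. The p-values hence cover the spread among these arrays alone, which may be technical.

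The respiratory chain sits in the inner mitochondrial membrane. Complex I (NADH dehydrogenase) and complex II (succinate dehydrogenase) pass electrons to ubiquinone, complex III (the cytochrome bc1 complex) passes them on to cytochrome c, and complex IV (cytochrome c oxidase) gives them to oxygen. Complexes I, III and IV pump protons as they do so, and complex V (ATP synthase) lets the protons flow back to make ATP. Most subunits are encoded in the nucleus, while a few of the central ones of complexes I, III, IV and V come from mitochondrial DNA. The 13 mitochondrially encoded subunits were not analysed here.

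Most nuclear genes of each of the 5 complexes rose in the lymphoma spleens. Of the 85 genes, 68 rose, 5 fell and 12 were not called, and the median log2 fold change was 0.55, with quartiles of 0.33 and 0.76. The 5 genes that fell were all isoforms of complex IV subunits that are known from muscle, heart or testis. Every gene of complexes II and V rose. Of complexes I, II, III and V 0 genes fell by limma, also at an unadjusted p under 0.05 and in the unmoderated test.

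A gene was called at an adjusted p of at most 0.05, by limma with Benjamini-Hochberg adjustment over all 22206 clusters. By the same rule 18.2% of all clusters were higher in lymphoma and 17.2% were lower, and the median change was -0.06 (log2), against 80.0% and 5.88% of the members. The values of the 4 lymphoma and the 4 control arrays did not overlap for 69 members that were higher and 5 that were lower in lymphoma. Over all clusters this held for 18.0% in the higher and 16.7% in the lower direction. Members are brighter than most clusters, and bright clusters were called more often. Among the 11103 brighter clusters 30.0% were higher and 22.2% lower in lymphoma, and of the 77 members there 67 rose and 1 fell. Among the 11103 dimmer ones 6.39% of clusters were higher and 12.2% lower, and of the 8 members there 1 rose and 4 fell.

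Averaged over all 85 genes, the log2 value was 9.56, 9.59, 9.51 and 9.55 on the lymphoma arrays and 9.12, 8.94, 9.04 and 9.04 on the control arrays. The lowest lymphoma array lay 0.39 above the highest control array. Among the control arrays, replicate 2 gave the lowest value of the group for 46 of the 85 members and replicate 1 the highest for 49. The spread was small: the SD among arrays of a group had a median over members of 0.08 in lymphoma and 0.11 in control, and a maximum of 0.21 in lymphoma and 0.31 in control.

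**Figure D1:**
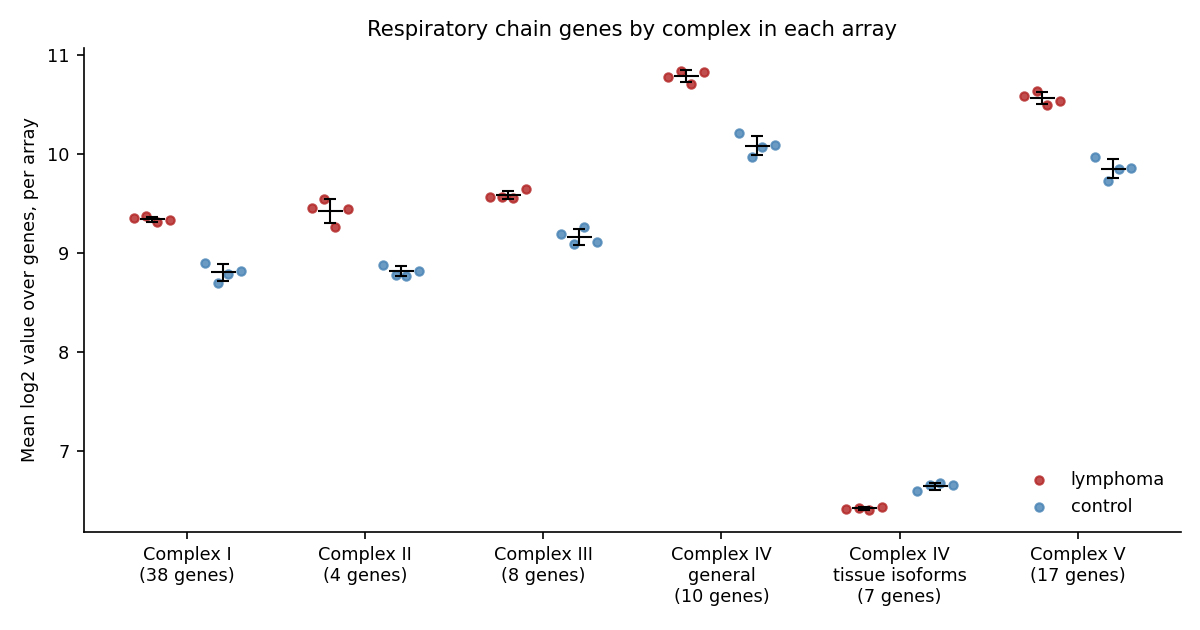
Mean log2 value (vertical axis) over the genes of each complex in every array; points are arrays, lymphoma left of control, and bars give mean and SD over 4 arrays. The groups do not overlap in any column; the tissue isoforms of complex IV lie lower in lymphoma, between 6.40 and 6.43, than in control, between 6.59 and 6.67, and Cox7a2l of complex IV is left out.

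The samples are whole spleens, in which fewer cells of a type and less RNA per cell cannot be told apart. Several marker lists moved together with the members. Of 19 genes of proliferating cells 19 rose, with a mean log2 level of 9.65 to 9.83 in lymphoma and 7.97 to 8.33 in control. Of 10 neutrophil genes 9 rose, with a mean level of 9.45 to 9.67 in lymphoma and 6.72 to 7.05 in control. Both lists therefore stood further apart between the groups than the respiratory chain did. Of 9 macrophage genes 6 rose and 2 fell, and the mean level was 9.82 to 9.91 in lymphoma and 8.85 to 9.08 in control. Of 11 B cell genes 10 fell, with levels of 10.39 to 10.57 in lymphoma and 11.36 to 11.44 in control. Of 8 pan-T cell genes 5 rose and 1 fell, at 9.08 to 9.26 in lymphoma and 8.78 to 8.90 in control. Markers of the spleen's lymphocytes were thus well above background in both groups. Of 7 erythroid genes 3 rose, at 9.19 to 9.37 in lymphoma and 7.93 to 9.13 in control, the low end being control replicate 2. The part of these cell types and of proliferation in the result was not tested.

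Among facts that concern all genes, the deposited values were already normalised between arrays, with a median over clusters of 7.23 in lymphoma and 7.20 in control, against 4.82 and 4.86 for the probe sets that measure background. Correlations across clusters were 0.992 to 0.995 within groups and 0.967 to 0.979 between them. Vav1 averaged 10.49 ± 0.08 in lymphoma and 10.18 ± 0.15 in control (SD, n = 4 each), which does not check the labels, since the edit leaves most of the gene in place. 3 genes of the Y chromosome, Eif2s3y, Kdm5d and Uty, picked with their values known, were lower in lymphoma by log2 values of -1.28, -1.38 and -1.25. They were above background on all 8 arrays, while the methods speak of female animals. The groups thus also differed in RNA of these Y-linked genes. Whatever underlies this, such as sex, was not tested and cannot be told apart from disease and Vav1 genotype.

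**Figure D2:**
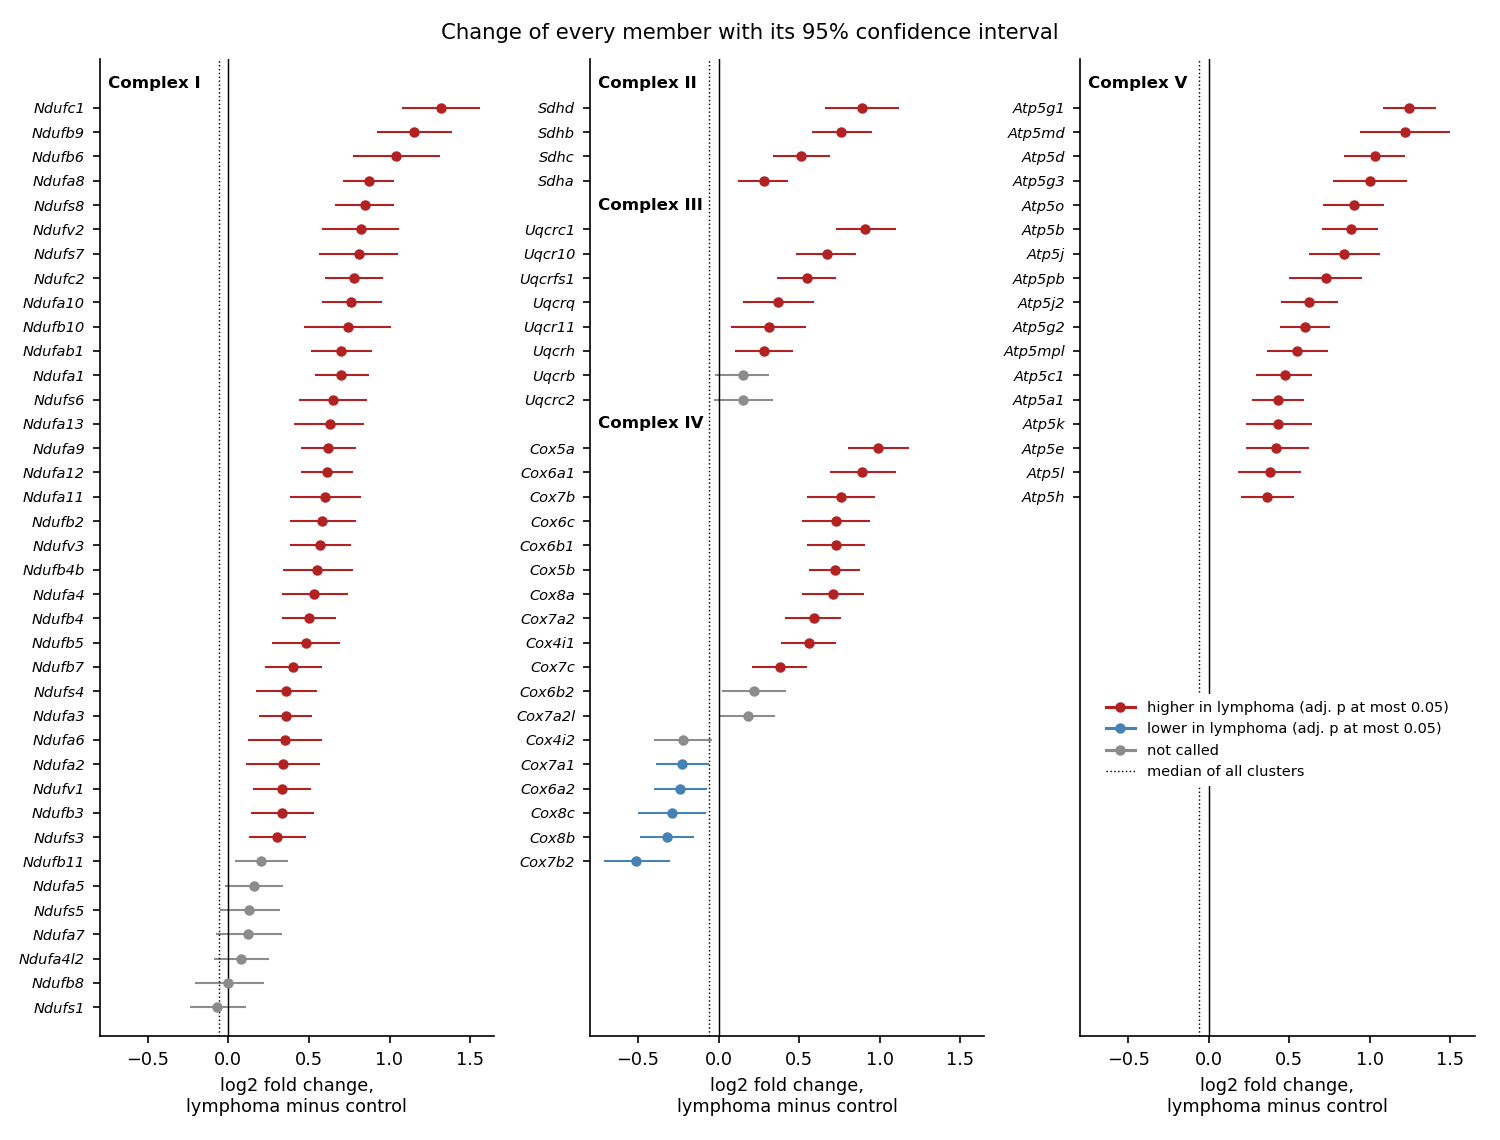
Log2 fold change of lymphoma over control (horizontal axis) with its 95% confidence interval from limma for each of the 85 genes, by complex and sorted by size. Genes to the right of the solid line at 0 were higher in lymphoma; the dotted line is the median of all clusters, -0.06, and the 5 genes called lower are all of complex IV.

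Complex I is the entry point for electrons from NADH and the largest complex of the chain. Of its 38 genes 31 rose, 0 fell and 7 were not called, with a median log2 fold change of 0.56. Its core subunits, which carry the flavin and the iron–sulphur clusters, and its accessory subunits, which surround that core, had close medians: 5 of 6 core genes rose, with a median of 0.57, and 24 of 29 accessory genes, with a median of 0.58. The difference between them was not tested.

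Ndufc1, a small accessory subunit of the membrane arm, had the largest rise of all members. Its log2 values were 10.53, 10.69, 10.41 and 10.42 in lymphoma, against 9.51, 9.06, 9.04 and 9.16 in control. The groups were far apart, and control replicate 1 was the nearest of its group to the lymphoma arrays. The log2 fold change was 1.32 ± 0.11 (SE), a 2.49-fold rise (limma, adjusted p = 1.14e-06).

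Ndufb9, another accessory subunit of the membrane arm, read 10.22, 10.46, 10.19 and 10.18 in lymphoma and 9.39, 8.94, 9.16 and 8.97 in control. Every lymphoma array lay above every control array, with lymphoma replicate 2 higher than its group. The log2 fold change was 1.15 ± 0.11 (SE; limma, adjusted p = 3.02e-06). Ndufb6, also of the membrane arm, had tight values of 9.22, 9.24, 9.23 and 9.18 in lymphoma and scattered values of 8.52, 7.78, 8.11 and 8.28 in control. Its groups did not overlap either, and its SD among control arrays was the largest of all members. Ndufb6 rose by 1.04 ± 0.13 on the log2 scale (SE; limma, adjusted p = 2.71e-05).

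Ndufa8, an accessory subunit on the side of the intermembrane space, averaged 10.22 ± 0.04 in lymphoma and 9.34 ± 0.07 in control (SD, n = 4 each), a log2 fold change of 0.87 (limma, adjusted p = 1.15e-06). Among the core subunits, Ndufs8, Ndufv2 and Ndufs7, which bind iron–sulphur clusters, had log2 fold changes of 0.85, 0.82 and 0.81. Ndufv1, which holds the flavin that takes electrons from NADH, and Ndufs3, a core subunit of the peripheral arm, rose less, by 0.33 and 0.30. These 5 core genes all had an adjusted p under the threshold, the largest being 0.00915 for Ndufs3 (limma).

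The remaining core gene, Ndufs1, the subunit with the most iron–sulphur clusters, was not called. It read 8.85, 9.01, 8.90 and 8.77 in lymphoma and 9.02, 8.87, 8.90 and 9.01 in control. The groups lay over each other, and the log2 fold change was -0.07 with a 95% confidence interval of -0.24 to 0.11 (limma, adjusted p = 0.556). Ndufb8, an accessory subunit of the membrane arm, read 8.51, 8.65, 8.61 and 8.95 in lymphoma and 8.55, 8.65, 8.81 and 8.71 in control. Its groups overlapped completely, with a log2 fold change of 0.00 and an interval of -0.21 to 0.22 (limma, adjusted p = 0.984), and its sign was negative under cyclic loess and under equal array medians. Both intervals end below the median change of complex I.

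The other complex I genes that were not called were Ndufa5, Ndufa7, Ndufs5, Ndufb11 and Ndufa4l2, with log2 fold changes of 0.16, 0.12, 0.13, 0.20 and 0.08. Ndufb11 narrowly missed the threshold (limma, adjusted p = 0.0504), and its values of 8.77 to 8.83 in lymphoma and 8.49 to 8.70 in control did not overlap. It was called with a trended, robust variance prior, with array weights, in the unmoderated test and without control replicate 1. Ndufa4, placed in complex I by its name but known as a subunit of complex IV, averaged 11.04 ± 0.02 in lymphoma and 10.50 ± 0.19 in control (SD, n = 4 each) and rose by 0.53 (limma, adjusted p = 0.000649). Its paralog Ndufa4l2, known as a gene induced by hypoxia, was dim and read 6.14 to 6.35 in lymphoma and 6.12 to 6.28 in control, with overlap. The calls of Ndufa2 and Ndufa6, with log2 fold changes of 0.34 and 0.35, depended on single arrays: Ndufa2 was not called without lymphoma replicate 1 or 2 or control replicate 2, and Ndufa6 not without lymphoma or control replicate 3, and neither was called in the unmoderated test. Ndufb4 and its near copy Ndufb4b rose by 0.50 and 0.55, but probes of 1 may also bind the other, so these 2 values are uncertain as separate results.

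Complex II is also an enzyme of the tricarboxylic acid cycle and is encoded entirely in the nucleus. All 4 of its genes rose in lymphoma, and none overlapped between the groups. The flavoprotein Sdha, which oxidises succinate, changed least, with 9.09, 9.06, 8.95 and 9.11 in lymphoma and 8.78, 8.74, 8.81 and 8.79 in control. Its arrays were close within each group, so that a log2 fold change of 0.28 ± 0.07 (SE) was called (limma, adjusted p = 0.00949). The iron–sulphur subunit Sdhb read 10.18, 10.25, 10.04 and 10.10 in lymphoma and 9.47, 9.32, 9.25 and 9.48 in control, a rise of 0.76 ± 0.08 (SE; limma, adjusted p = 1.24e-05).

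The membrane anchors Sdhc and Sdhd, which hold the site for ubiquinone, rose as well. Sdhc read 8.80, 8.96, 8.63 and 8.75 in lymphoma and 8.29, 8.27, 8.22 and 8.30 in control, with a log2 fold change of 0.51 ± 0.08 (SE; limma, adjusted p = 0.000293). Sdhd read 9.73, 9.94, 9.43 and 9.78 in lymphoma and 8.99, 8.79, 8.80 and 8.73 in control, with a log2 fold change of 0.89 ± 0.11 (SE; limma, adjusted p = 2.33e-05). In both anchors lymphoma replicate 2 was the highest and lymphoma replicate 3 the lowest array of its group, still above all controls.

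Complex III passes electrons from ubiquinol to cytochrome c. Of its 8 genes 6 rose and 2 were not called, with a median log2 fold change of 0.34. Uqcrc1, which encodes 1 of the large core proteins facing the matrix, led with 9.32, 9.20, 9.19 and 9.27 in lymphoma, against 8.35, 8.14, 8.47 and 8.37 in control. The groups were well separated, with a log2 fold change of 0.91 ± 0.09 (SE; limma, adjusted p = 3.02e-06). Uqcrc2, the other core protein, read 9.04, 9.0, 9.03 and 9.25 in lymphoma and 9.0, 8.99, 8.90 and 8.81 in control. Its groups met at their edges and it was not called, with a log2 fold change of 0.15 and an interval of -0.03 to 0.34 (limma, adjusted p = 0.179). The interval of Uqcrc1, 0.73 to 1.10, does not reach that of its partner, though the difference itself was not tested.

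Uqcrfs1, the Rieske iron–sulphur protein that takes electrons from ubiquinol, rose by 0.55 ± 0.09 (SE; limma, adjusted p = 0.000262), with 9.49 to 9.61 in lymphoma and 8.78 to 9.10 in control. Of the small subunits, Uqcr10 and Uqcrq rose by 0.67 and 0.37, and Uqcr11 and Uqcrh by 0.31 and 0.28 with adjusted p-values nearer the threshold, 0.0393 and 0.0183 (limma). The call of Uqcr11 was lost without lymphoma replicate 4 or without control replicate 2 or 4, and that of Uqcrh without lymphoma replicate 2 or control replicate 2. Uqcr11 was also not called under equal array medians, array weights or the unmoderated test, and Uqcrq not in the unmoderated test. Uqcrb, the small subunit that contacts the ubiquinone site, read 11.70 to 11.83 in lymphoma and 11.55 to 11.74 in control, with overlap and a log2 fold change of 0.15 (limma, adjusted p = 0.161). It was called with a trended, robust variance prior only. Cyc1, the cytochrome c1 of complex III, is outside the rule because of its name, and rose by 0.33 (limma, adjusted p = 0.016).

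Complex IV split by the kind of isoform. Several of its nuclear subunits exist as a general form, found in most tissues, and as forms known from certain tissues: Cox6a2, Cox7a1 and Cox8b from heart and skeletal muscle, Cox6b2, Cox7b2 and Cox8c from testis, and Cox4i2 from lung. All 10 general genes rose, and their median log2 fold change was 0.72. Of the 7 tissue isoforms 0 rose and 5 fell by limma, with a median of -0.24. At an unadjusted p under 0.05, 1 of the 7 was higher and 6 were lower. Apart from Cox6a2, the tissue isoforms were dim, with means of at most 7.03 in either group. The median over clusters was 7.23 in lymphoma and 7.20 in control. Among the 11103 dimmer clusters, 6.39% were higher and 12.2% lower in lymphoma. The part of low signal in these falls was not tested. Cox7a2l, a paralog of Cox7a2 known for joining complexes III and IV into supercomplexes, was not called, with a log2 fold change of 0.18 and an interval of 0.00 to 0.35 (limma, adjusted p = 0.106). With a trended, robust variance prior it was called.

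**Figure D3:**
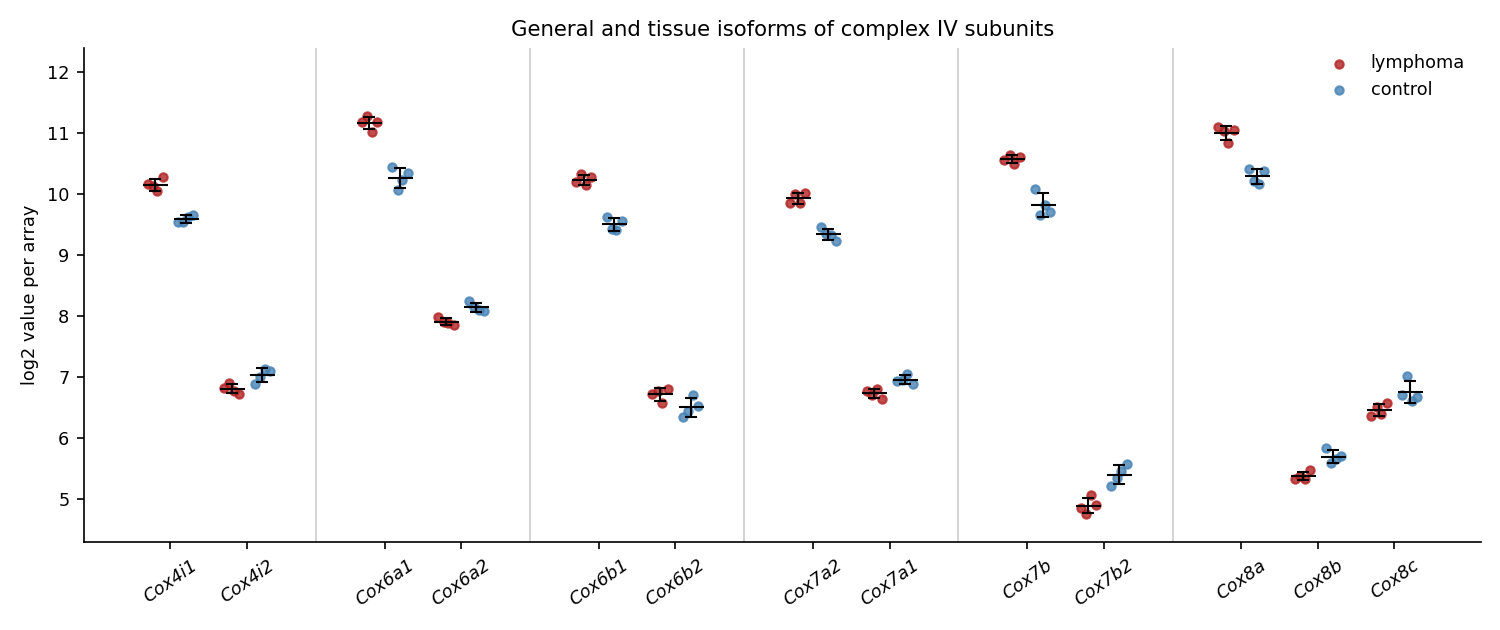
Log2 value per array (vertical axis) for the general form of 6 complex IV subunits, each followed by its tissue isoforms; points are arrays, lymphoma left of control, and bars give mean and SD over 4 arrays. The general forms lie higher in lymphoma, and all tissue isoforms but Cox6b2 have a lower mean there; levels of different genes are read by different probes and are not comparable.

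Cox5a, a subunit on the matrix side, led the general genes with 10.23, 10.28, 10.28 and 10.42 in lymphoma, against 9.41, 9.13, 9.44 and 9.29 in control. The groups did not overlap, and the log2 fold change was 0.99 ± 0.09 (SE; limma, adjusted p = 1.92e-06). Cox6a1 read 11.19, 11.28, 11.03 and 11.18 in lymphoma and 10.45, 10.07, 10.23 and 10.35 in control, a rise of 0.89 ± 0.10 (SE; limma, adjusted p = 8.95e-06). Its muscle counterpart Cox6a2 went the other way, with 7.99, 7.90, 7.89 and 7.86 in lymphoma and 8.25, 8.15, 8.10 and 8.09 in control. That fall was small, -0.24 on the log2 scale, and lay between groups that did not overlap (limma, adjusted p = 0.0262).

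The same opposite directions were seen for other pairs. Cox7b rose by 0.76 (limma, adjusted p = 4.08e-05), and Cox7b2 changed by -0.51 ± 0.10 (SE; limma, adjusted p = 0.000999). The values of Cox7b2 were 4.85, 4.76, 5.06 and 4.90 in lymphoma and 5.21, 5.35, 5.46 and 5.57 in control. It is the dimmest member, and 2 of its lymphoma arrays were no brighter than the median background probe set, so its size is uncertain. Cox8a rose by 0.71 (limma, adjusted p = 3.29e-05), while Cox8b and Cox8c fell by 0.32 and 0.29 on the log2 scale (limma, adjusted p = 0.00707 and 0.0345). Cox8b read 5.33, 5.37, 5.33 and 5.47 in lymphoma and 5.84, 5.59, 5.65 and 5.70 in control, close to background in both groups.

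Cox7a2 rose by 0.59 and Cox7a1 fell by 0.23 on the log2 scale (limma, adjusted p = 8.33e-05 and 0.0327). Cox4i1, the general form of a subunit that regulates the enzyme, rose by 0.56 (limma, adjusted p = 8.78e-05). Its counterpart Cox4i2 was not called, with 6.82, 6.90, 6.78 and 6.73 in lymphoma, 6.88, 7.01, 7.14 and 7.10 in control and a log2 fold change of -0.22 (limma, adjusted p = 0.0515). Cox6b1 rose by 0.73 (limma, adjusted p = 1.39e-05). Cox6b2, the exception among the tissue isoforms, had a positive log2 fold change of 0.22, which was not called (limma, adjusted p = 0.0895), and its groups overlapped. It was called under cyclic loess and without control replicate 3, and Cox4i2 under equal array medians and without control replicate 1. The 5 falls were small, and those of Cox6a2, Cox7a1 and Cox8c were each lost when certain single arrays were left out: 2 of the 5 were called without lymphoma replicate 2 or without control replicate 2, and 3 of the 5 without lymphoma replicate 1, 3 or 4 or without control replicate 1. Cox7b2 and Cox8b were still called without any 1 array. Cox7a1 and Cox8c were also not called under cyclic loess, Cox8c not in the unmoderated test and Cox7a1 not with a trended, robust variance prior.

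Complex V makes the ATP from the proton gradient. All 17 of its genes rose, with log2 fold changes of 0.36 to 1.24 and a median of 0.62, and the groups overlapped in none. Averaged over the genes, it read 10.59, 10.64, 10.50 and 10.54 in lymphoma, against 9.97, 9.73, 9.85 and 9.86 in control.

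The rotating ring of complex V is built from subunit c, whose mature protein is the same from 3 genes, Atp5g1, Atp5g2 and Atp5g3. Atp5g1 read 10.25, 10.23, 10.07 and 10.17 in lymphoma and 8.95, 8.83, 8.99 and 8.98 in control. It had the smallest adjusted p of all members, 9.15e-08 (limma), with a log2 fold change of 1.24 ± 0.08 (SE), or 2.37-fold. Atp5g3 read 10.38, 10.33, 10.16 and 10.25 in lymphoma and 9.43, 8.96, 9.41 and 9.33 in control, a rise of 1.0 ± 0.11 (SE; limma, adjusted p = 8.91e-06). Atp5g2 rose by 0.60 ± 0.07 (SE; limma, adjusted p = 2.66e-05), with 11.27, 11.25, 11.19 and 11.22 in lymphoma and 10.70, 10.61, 10.57 and 10.68 in control. The interval of Atp5g1, 1.08 to 1.41, lay above that of Atp5g2, 0.44 to 0.75, and that of Atp5g3, 0.77 to 1.23, overlapped that of Atp5g1 only.

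Of the 5 subunits of the catalytic F1 head, Atp5d, the delta subunit of the central stalk, rose the most. It read 10.55, 10.54, 10.53 and 10.57 in lymphoma and 9.68, 9.35, 9.63 and 9.41 in control. The lymphoma arrays were nearly equal and all far above control, with a log2 fold change of 1.03 ± 0.09 (SE; limma, adjusted p = 1.38e-06). The catalytic beta subunit Atp5b rose by 0.88 and the alpha subunit Atp5a1 by 0.43 (limma, adjusted p = 2.50e-06 and 0.000523). Their products form the head in equal numbers.

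Of the 9 genes of the stalk and membrane part, Atp5md, a small membrane subunit, rose by 1.22 ± 0.13 (SE; limma, adjusted p = 9.26e-06). Its values were 11.00, 11.15, 10.86 and 11.04 in lymphoma, against 10.09, 9.37, 9.84 and 9.89 in control, where replicate 2 was low. Atp5o, which links the stalk to the head, rose by 0.90. Atp5h and Atp5l, subunits d and g, had the smallest rises of complex V, 0.36 and 0.38 (limma, adjusted p = 0.00232 and 0.00574).

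Set side by side, the difference between the group means, lymphoma minus control, was 0.53 for complex I, 0.61 for complex II, 0.42 for complex III, 0.31 for complex IV and 0.71 for complex V. With the tissue isoforms and Cox7a2l left aside, complex IV came to 0.71. The differences between complexes were not tested. In each complex the lowest lymphoma array was above the highest control array, by 0.41, 0.38, 0.30, 0.21 and 0.53 for complexes I to V. Within each complex the genes differed more from each other than the complexes did: log2 fold changes ran between -0.07 and 1.32 in complex I, 0.28 and 0.89 in complex II, 0.15 and 0.91 in complex III, and -0.51 and 0.99 in complex IV.

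Other mitochondrial genes gave a mixed picture, to be read beside the 18.2% of all clusters that were higher and the 17.2% that were lower. Channels, carriers and import proteins were the list closest to the respiratory chain, with 15 of 18 genes higher and 0 lower (also 0 lower at an unadjusted p under 0.05), at a median change of 0.49 (log2). Vdac1, the main channel of the outer membrane, averaged 9.95 ± 0.13 in lymphoma and 8.95 ± 0.15 in control (SD, n = 4 each), and Timm23, the import pore of the inner membrane, 10.41 ± 0.04 in lymphoma and 9.55 ± 0.12 in control. They rose by 1.0 and 0.85 (limma, adjusted p = 3.79e-06 and 3.19e-06). Of 17 genes of the tricarboxylic acid cycle 8 rose and 0 fell by limma, with a median of 0.27, and 1 was lower at an unadjusted p under 0.05 and in the unmoderated test. Mdh2, the mitochondrial malate dehydrogenase, and Idh3a, a subunit of isocitrate dehydrogenase, rose by 0.92 and 0.76.

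The factors that assemble the complexes differed from the subunits in their counts. Of 50 assembly genes 17 rose and 6 fell, with a median of 0.08. For complex I, 4 of 17 rose and 4 fell (23.5% each, near the shares of all clusters), with a median of -0.04. Ndufaf1 rose by 0.36 and Dmac2 changed by -0.43. For complexes II and III together, 2 of 10 rose and 2 fell (20.0% each, also near the shares of all clusters), with a median of -0.02. Lyrm7, a chaperone for the Rieske protein, read 7.63, 7.44, 7.57 and 7.45 in lymphoma and 9.03, 9.13, 8.84 and 8.67 in control, which made it the largest change of any gene in these mitochondrial lists, at -1.39 ± 0.10 (SE; limma, adjusted p = 3.75e-07). Uqcrfs1, the protein it serves, rose, as given above. Uqcc2, another complex III factor, rose by 0.75, and the 4 Sdhaf genes had a median of -0.05 with 0 called in either direction by limma, adjusted or not. For complex IV, 8 of 19 factors rose and 0 fell, adjusted or not, with a median of 0.14, led by Cmc2 and Cmc1 at 0.96 and 0.92. For complex V, 3 of 4 rose, with a median of 0.43, among them Tmem242 and Tmem70 at 0.57 and 0.45.

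Among 16 electron carriers and genes of ubiquinone synthesis, 7 rose and 3 fell, with a median of 0.13. These are 43.8% and 18.8%, against 18.2% and 17.2% of all clusters. Cycs, the cytochrome c that joins complexes III and IV, rose by 0.70 (limma, adjusted p = 1.54e-05), and Coq7, an enzyme of ubiquinone synthesis, by 0.94. Genes that copy and express mitochondrial DNA did not share the rise: of 13, 1 rose and 4 fell, with a median of -0.12. These are 7.69% and 30.8%. Their mean log2 level was 7.90 to 8.03 in lymphoma and 8.03 to 8.16 in control, so they were dimmer than the members. The part of brightness in their counts was not tested. Tfam, which packages and transcribes mitochondrial DNA and was singled out after its value was seen, read 8.18, 8.14, 8.09 and 7.92 in lymphoma and 8.70, 8.56, 8.31 and 8.37 in control, a log2 fold change of -0.40 without overlap (limma, adjusted p = 0.00652). Polg2, the accessory subunit of the mitochondrial DNA polymerase, changed by -0.58, and Slirp, which stabilises mitochondrial mRNA, rose by 0.71.

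**Figure D4:**
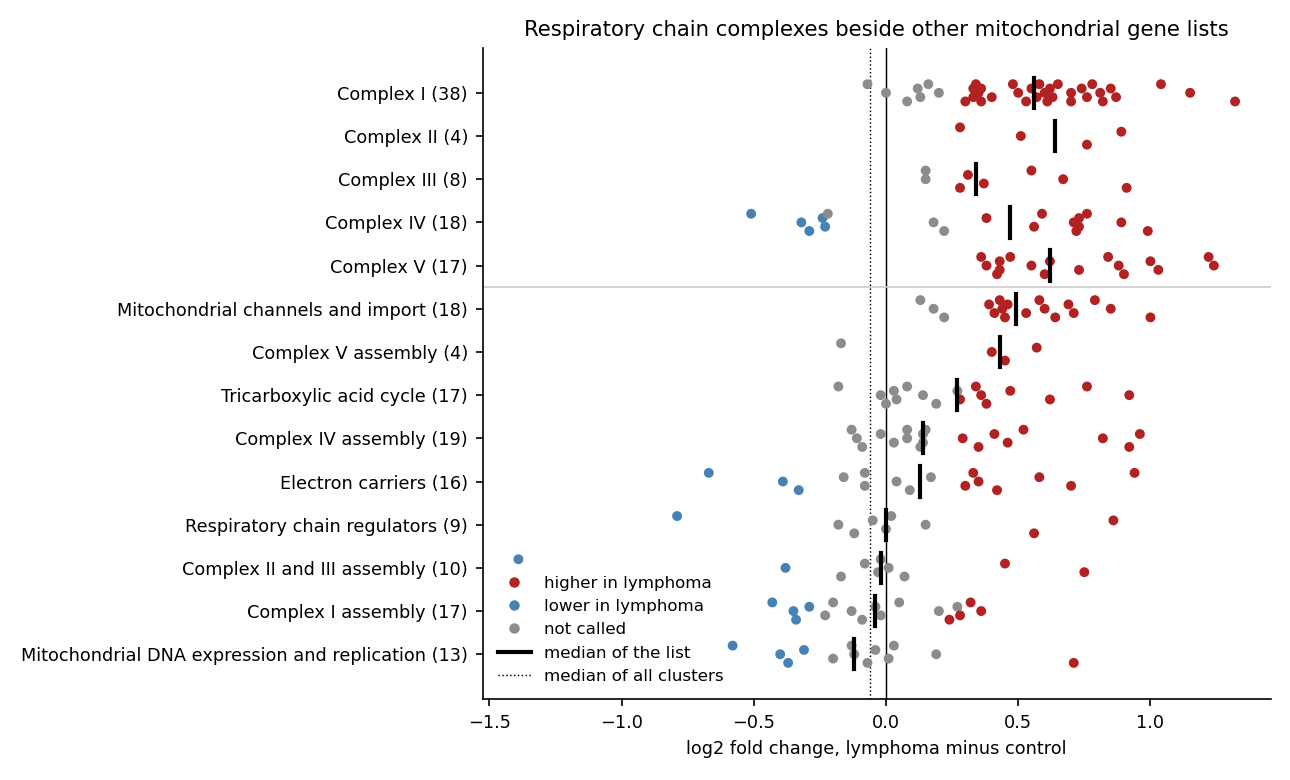
Log2 fold change of lymphoma over control (horizontal axis) for every gene of the 5 complexes, above the grey line, and of 9 other mitochondrial gene lists; the number of genes is in brackets and thick bars are medians. Medians run between 0.34 and 0.64 for the complexes and between -0.12 and 0.49 for the other lists.

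Of 9 measured regulators of respiratory chain genes, 2 rose, 1 fell and 6 were not called. The 22.2% that rose and the 11.1% that fell are near the 18.2% and 17.2% of all clusters. Hif1a, the oxygen-sensitive factor, and Myc rose by 0.86 and 0.56 (limma, adjusted p = 1.62e-05 and 9.49e-05; Myc was singled out after its value was seen). Ppargc1a, the coactivator known for driving mitochondrial genes in muscle and brown fat, read 5.80, 6.24, 5.88 and 5.51 in lymphoma and 6.58, 6.75, 6.42 and 6.85 in control, a change of -0.79 ± 0.14 (SE; limma, adjusted p = 0.000613). The mRNAs of 3 factors whose sites were searched in the promoters, Nrf1, Gabpa and Yy1, were not called, with log2 fold changes of 0.02, -0.18 and 0.15.

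The members lie on 19 chromosomes. Their promoters were read from RefSeq (GRCm38.p6), as windows of 300 bases, 250 before and 50 after the start of transcription. Windows were at hand for 70 of the 85 genes, 75 in all, since 5 genes had several. The motifs were searched on both strands: GCGCANGC for NRF1, CCGGAAG for ETS factors such as GABPA, AAGATGGC for YY1, AAGGTCA for ERRA, CCAAT for NF-Y and GGGCGG for SP1. The 6 stretches below run 5′ to 3′ along the gene, 170 bases before and 30 after the start, with matches to the first 4 motifs in capitals. Chosen with their matches known, they show a gene that rose in each complex and, in Cox7b2, the gene with the largest fall. Cox5a and Atp5g1, which rose the most in complexes IV and V, are not shown, and their windows hold none of the first 4 motifs. Other genes that rose, such as Cox5b, Cox7b and Atp5d, hold none of them either. The stretches hence do not show that a match goes with a rise.
Ndufc1 promoter, chr3:51408926-51409125, minus strand: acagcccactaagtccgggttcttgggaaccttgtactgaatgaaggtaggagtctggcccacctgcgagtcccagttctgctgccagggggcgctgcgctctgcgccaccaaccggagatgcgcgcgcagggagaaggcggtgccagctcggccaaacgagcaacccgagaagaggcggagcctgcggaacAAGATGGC
Sdhd promoter, chr9:50603820-50604019, minus strand: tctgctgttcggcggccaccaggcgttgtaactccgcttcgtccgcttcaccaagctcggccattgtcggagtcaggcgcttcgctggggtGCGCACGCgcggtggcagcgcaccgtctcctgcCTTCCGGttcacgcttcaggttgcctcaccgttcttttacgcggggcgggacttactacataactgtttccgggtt
Uqcrc1 promoter, chr9:108936478-108936677, plus strand: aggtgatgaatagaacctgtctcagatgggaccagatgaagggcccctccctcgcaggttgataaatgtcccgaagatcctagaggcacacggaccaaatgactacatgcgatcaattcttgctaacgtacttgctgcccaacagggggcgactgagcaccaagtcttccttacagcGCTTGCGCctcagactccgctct
Cox6a1 promoter, chr5:115348929-115349128, minus strand: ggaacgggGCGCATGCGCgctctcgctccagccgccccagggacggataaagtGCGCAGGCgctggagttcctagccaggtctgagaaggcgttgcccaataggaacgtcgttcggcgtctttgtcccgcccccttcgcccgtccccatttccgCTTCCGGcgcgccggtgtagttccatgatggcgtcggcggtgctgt
Atp5g3 promoter, chr2:73911297-73911496, minus strand: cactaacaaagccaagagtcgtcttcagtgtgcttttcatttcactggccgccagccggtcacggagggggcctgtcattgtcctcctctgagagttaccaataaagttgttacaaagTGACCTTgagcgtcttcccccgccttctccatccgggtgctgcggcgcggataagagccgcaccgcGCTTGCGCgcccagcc
Cox7b2 promoter, chr5:71548176-71548375, minus strand: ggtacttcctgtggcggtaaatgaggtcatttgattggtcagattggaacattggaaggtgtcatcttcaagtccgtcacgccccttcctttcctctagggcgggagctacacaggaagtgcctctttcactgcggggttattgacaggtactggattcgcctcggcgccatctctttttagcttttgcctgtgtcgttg

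In these stretches Ndufc1 has a YY1 match, Sdhd an NRF1 and an ETS match, Uqcrc1 an NRF1 match, Cox6a1 an ETS match and 3 NRF1 matches of which a pair overlap, and Atp5g3 an ERRA and an NRF1 match. Cox7b2 has 0 matches to these 4 motifs in its whole window. Over all members, 32.0% of the 75 windows hold the NRF1 motif, against 9.95% of all 32817 promoter windows. The ETS motif is in 22.7% of member windows and 8.86% of all, YY1 in 13.3% and 2.74%, and ERRA in 10.7% and 4.72%. NF-Y, at 41.3% and 37.4%, and SP1, at 40.0% and 35.6%, were about as common in members as elsewhere. By complex, the NRF1 motif is in 10 of 36 windows of complex I, 3 of 3 of complex II, 2 of 5 of complex III, 1 of 13 of complex IV and 8 of 18 of complex V. The 10 windows with the YY1 motif belong to complexes I and V, 7 and 3. Of the 4 windows of tissue isoforms of complex IV, 0 hold any of the first 4 motifs. Of the 8 windows of its general forms, 1 holds the NRF1 motif, 3 the ETS motif and 0 the YY1 or the ERRA motif. So few windows, with motifs this rare over all promoters, cannot tell the kinds of isoform apart. A match to these letters is a description of the window and does not show that a factor binds there.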

How the data were processed

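Total RNA from spleens of 4 lymphoma and 4 control samples, grouped by the genotype in the labels, was read on 1-colour arrays. The deposited log2 values were made by the authors by robust multichip averaging of the scanner files, which corrects background, equalises probe distributions between arrays and sums up the probes of each cluster; the submitters' processing notes name R 3.6.3. Real differences in total RNA are thereby not visible. Of 29129 rows, 6923 control probe sets were left out. Genes were named from the platform annotation, and a lookup of gene numbers in RefSeq (GRCm38.p6) changed 0 symbols. Clusters with 1 symbol numbered 19572. The other 2634 were treated as unnamed, a rule that took in clusters with no symbol and any with several.

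All 22206 clusters were fitted with limma 3.58.1 in R 4.3.3 (lmFit, eBayes, two-sided, Benjamini-Hochberg), without covariates; the study's methods name limma with this adjustment and no further design. The fit was tested on simulated data. No list was tested as a set. Promoters were searched with Python 3.11.15 and pandas 2.3.3. No batch or date is given in the sources used here, so none was tested. The number of arrays limits the precision.

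Genes named are, in each complex, up to 4 called genes with the largest rise and with the largest fall, the 2 with the smallest change, all isoform pairs and complex II, and up to 2 called genes of each other list; further members are named in lists of values. The members, lists and rules were chosen with earlier results of these data known. Where a gene has several clusters, the one with the highest mean was used. As alternatives, a block for the replicate number, cyclic loess, equal array medians, other variance moderation, array weights, filters on dim clusters, an unmoderated test, each array left out, a threshold of 0.01, cluster means and structural subunits only were run.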

Additional observations from a re-analysis of the deposited data

Results flagged for a closer look

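Among 128 groups of 4 values examined (named genes and means of complexes), 7 held an array that stood far apart from the other 3, where chance marks about 1 in 20 groups. Lymphoma replicate 2 read 10.46 for Ndufb9 (the others 10.18 to 10.22), and lymphoma replicate 3 read 10.15 for Ndufa8 (the others 10.23 to 10.24). Lymphoma replicate 4 read 9.25 for Uqcrc2 (the others 9.0 to 9.04) and 9.65 for the mean of complex III (the others 9.56 to 9.57). Lymphoma replicate 1 read 6.14 for Ndufa4l2 (the others 6.31 to 6.35). Control replicate 2 read 8.78 for Uqcrfs1 (the others 9.06 to 9.10) and 6.88 for Cmc2 (the others 7.20 to 7.25).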

How the results depend on the processing

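The counts of members higher in lymphoma and the medians of complexes I, II, III and V stayed within 1.5 times or within the spread of the arrays under every alternative run, apart from the values given here. Without each array in turn, members higher ranged between 65 and 69, members lower and complex IV lower between 2 and 5, and the median of complex I between 0.50 and 0.58, the lowest without control replicate 2. Members lower, all in complex IV, came to 3 under cyclic loess, 1 without the dimmest 50% of clusters, where fewer of these dim genes were tested, and 2 at an adjusted p of at most 0.01. The median of complex IV was 0.57 without the dimmest 25%, 0.72 without the dimmest 50% and 0.55 with structural subunits only. At 0.01, complex III had 3 genes higher and 2166 of all clusters were lower. Ndufb8, at 0.00, was -0.02 under cyclic loess, under equal medians and with array weights, and between -0.09 and 0.06 without each array in turn, negative without lymphoma replicate 4, control replicate 1 or control replicate 2; the cause was not tested. The median over all clusters was -0.01 under cyclic loess and -0.08 under equal medians.

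With the replicate number as a block, 67 members were higher and 5 lower, and Uqcr11 was no longer called. Deviations of same-numbered arrays correlated at 0.12, 0.04, 0.04 and 0.17, so the numbers are not taken to pair the samples. Cluster means and the filter on members at background left the members' counts as they were, since each gene has 1 cluster and 0 members were at background in both groups. RNA changes of genes near background, such as Cox7b2 and Cox8b, are limited by signal.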
